A study of Mus musculus with 20 samples.

Results

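Described here are 37 genes that encode glutamate receptors and the proteins that hold these receptors at the postsynaptic side of excitatory synapses, measured in the cerebral cortex of tau transgenic and wild-type mice. The genes were chosen by symbol: the subunits of the AMPA, NMDA and kainate receptors, 6 metabotropic glutamate receptors, the Dlg, Shank, Homer and Dlgap scaffolds, and the 2 calcium/calmodulin-dependent kinase II genes Camk2a and Camk2b. All 37 were found, each with 1 gene ID, among the 21949 genes of the mRNA table, and their 164 transcripts stood among 50660. All 37 also had a mean of at least 0.5 FPKM (fragments per kilobase of transcript, scaled to the fragments of each library) over the libraries and were tested together with the 13722 genes that reached this level.

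The series compares PS19 mice, which carry the transgene Tg(Prnp-MAPT*P301S)PS19Vle, with wild-type mice at 2 ages; all mice were (C57BL/6 x C3H)F1. The groups, of 5 libraries each, were transgenic mice of 10 months (TG10M), wild-type mice of 10 months (WT10M), transgenic mice of 3 months (TG03M) and wild-type mice of 3 months (WT03M). The transgene encodes human tau with the P301S mutation and is driven by the promoter of Prnp, the prion protein gene, which is active in neurons and in other cell types. Libraries are numbered within a group, but no label ties each to an animal of its own, and p-values here measure the spread between these samples, which may in part be technical.

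Glutamate released at an excitatory synapse opens AMPA receptors, which carry most of the fast current, and NMDA receptors, which admit calcium when the membrane is depolarised. Kainate receptors tune release and excitability, and metabotropic receptors do so through G proteins. Below the membrane the Dlg proteins bind receptor tails, the Dlgap proteins join them to the Shank proteins, and the Homer proteins link Shank to the metabotropic receptor encoded by Grm5. CaMKII is among the most abundant proteins of this postsynaptic density and is activated by the calcium that NMDA receptors admit.

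The steps between low FPKM values placed the depth at 23500000 to 31350000 fragments per library. Prnp, whose regulatory sequence the transgene carries, had 736 to 841 FPKM in TG10M and 412 to 528 in WT10M libraries, and 695 to 812 FPKM in TG03M and 426 to 458 in WT03M libraries, so every library matched the genotype of its label; the ages have no such check. Mapt, the mouse tau gene, had 119 to 144 FPKM in TG10M and 133 to 166 in WT10M libraries and was not called (adjusted p = 0.367, limma with Benjamini-Hochberg adjustment). Some libraries stood apart from the rest of their group. TG10M libraries 1 and 5 and WT10M library 5 stood apart from the other 17 on the leading principal component of all tested genes, which held 23.9% of the variance, and are called the set apart below. These 3 and TG03M libraries 2 to 5 had 13.9 to 20.5 FPKM of Hsp90aa1, a chaperone gene, whereas the other 13 libraries had 532 to 687 FPKM. The labels give no batch, so whether a batch underlies either split was not tested. All 10 markers of excitatory neurons and all 10 of astrocytes were detected, with no marker of either list at 0 in all libraries. The summed level of the excitatory markers was 424 to 490 FPKM in TG10M and 406 to 484 FPKM in WT10M libraries. That of the astrocyte markers was 1516 to 1678 FPKM in TG10M and 1237 to 1401 FPKM in WT10M libraries. Microglial markers summed to 374 to 455 FPKM in TG10M and 242 to 374 FPKM in WT10M libraries, and 4 of these 10 genes were called as higher in TG10M. In bulk cortex, fewer cells of a type and less RNA per cell cannot be told apart.

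The 37 genes spanned more than 2 orders of magnitude in level. The median member had a mean of 34.2 FPKM over the 20 libraries, against 11.0 FPKM for the median tested gene. Of the 37 members, 6 averaged over 100 FPKM, 23 lay between 10 and 100 and 8 lay below 10. The highest were Gria2, which encodes the AMPA receptor subunit GluA2, at 211 FPKM, and Camk2b at 206 FPKM. Camk2a followed at 180.5, Homer1 at 178, Dlgap1 at 145 and Dlg4, which encodes PSD-95, at 136 FPKM. The lowest were Homer3 at 2.11 and Grin2d at 1.85 FPKM. The order of levels was nearly the same in every group, with rank correlations of the group means between 0.991 and 0.996 over the 37 genes (a description, since the same genes enter each group). Neighbours in the order that did not differ beyond their spread were common: Gria2 ran over 199.5 to 233 FPKM in the 20 libraries and Camk2b over 182 to 224 FPKM.

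**Figure D1:**
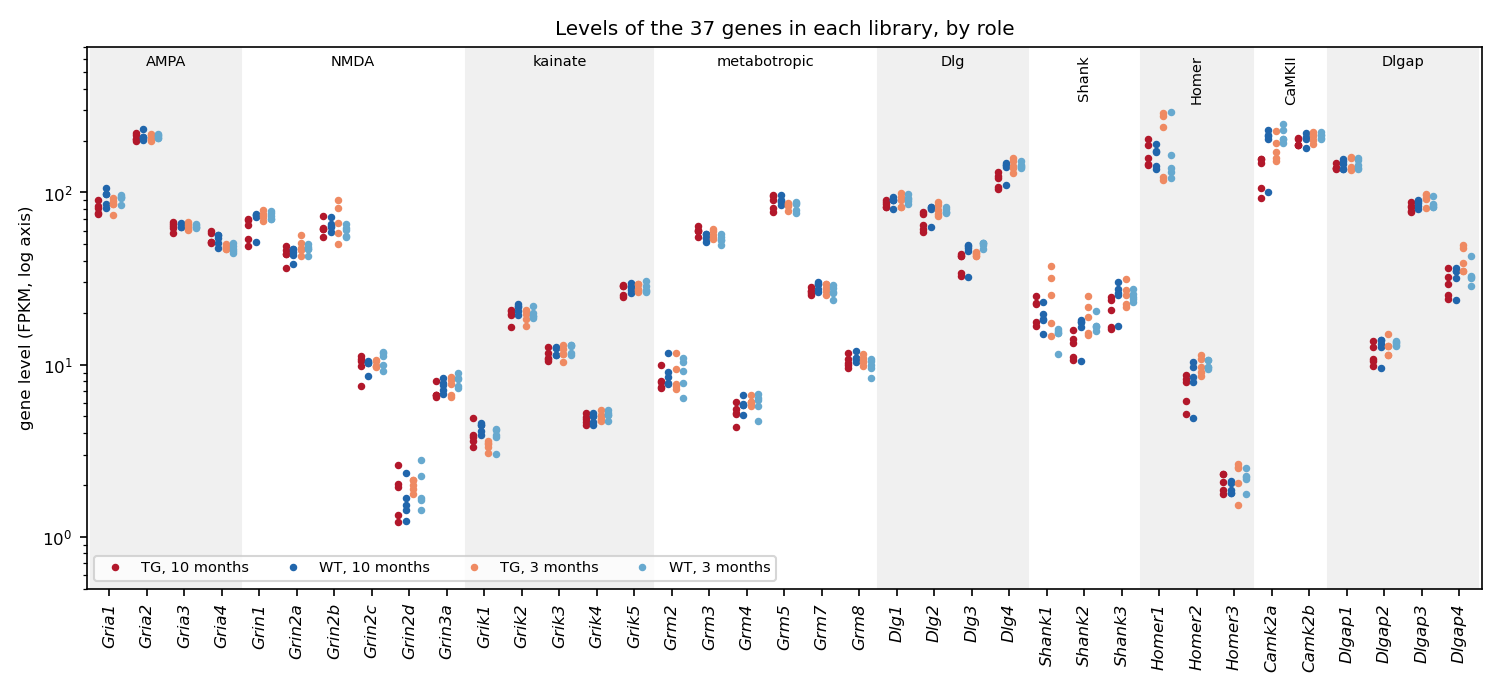
Level of each of the 37 genes in each of the 20 libraries (points; y axis, FPKM on a log axis), with genes grouped by role along the x axis and groups by colour. Levels run from Grin2d, at a mean of 1.85 FPKM, to Gria2, at 211 FPKM, and the 4 groups overlap for most genes.

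None of the 37 genes was called at an adjusted p under 0.05 between genotypes at 10 months, where 0.634% of all tested genes were called (87 of 13722). Without adjustment, 6 members had a p under 0.05, which is 6 of 37 against 14.1% of all tested genes. Most members differed downward: 31 differences were negative, meaning lower in TG10M, and 6 were positive, with a median of -0.07 on the log2 scale against 0.0006 for all tested genes. All differences are on log2(FPKM + 0.5), a scale that understates the change of genes with low values. The counts of 31 and 6 were the same after median centring and after quantile normalization. They were 29 and 8 with the set apart left out, where 4 members changed sign. With the low Hsp90aa1 state as a term in the fit they were 28 and 9, and 3 members changed sign. No member's TG10M and WT10M libraries were separated without overlap, against 0.729% of tested genes lower and 1.65% higher. For 32 of 37 members the 95% interval of the difference lay within 0.5 on the log2 scale in both directions, and the bounds reached from -0.92 for Camk2a to 0.56 for Homer1. In the same libraries the differences of 11 of 11 markers of striatal neurons were negative, with 0 called and none at 0 in all libraries, and their summed level was 193 to 471 FPKM in TG10M and 425 to 546 FPKM in WT10M libraries. Their part in the members' differences was not tested.

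At 3 months 0 of 37 members were called, with 0.299% of all tested genes called (41 of 13722), and 2 members had an unadjusted p under 0.05 where 10.6% of tested genes did. Here the members divided into 17 negative and 20 positive differences, with a median of 0.0047. With the low Hsp90aa1 state as a term in the fit the split was 8 negative and 29 positive, with a median of 0.08, and 15 members changed sign. Dlg3 was the single member lower in every TG03M library than in every WT03M library, as were 2.47% of tested genes; 0 members were higher in every TG03M library, against 2.01% of tested genes. Markers of choroid plexus, an epithelium of the ventricles, summed to 97.6 to 1291 FPKM in TG03M and 88.3 to 119 FPKM in WT03M libraries, with 0 of the 7 tested called and none at 0 in all libraries, and their part in these differences was not tested. The test of whether the genotype difference itself changed with age called 0 members and 0.0364% of tested genes (5 of 13722); 3 members had an unadjusted p under 0.05, against 5.04% of tested genes. These were Dlgap4, Grm7 and Dlgap3, with adjusted p of 0.962 each (limma).

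**Figure D2:**
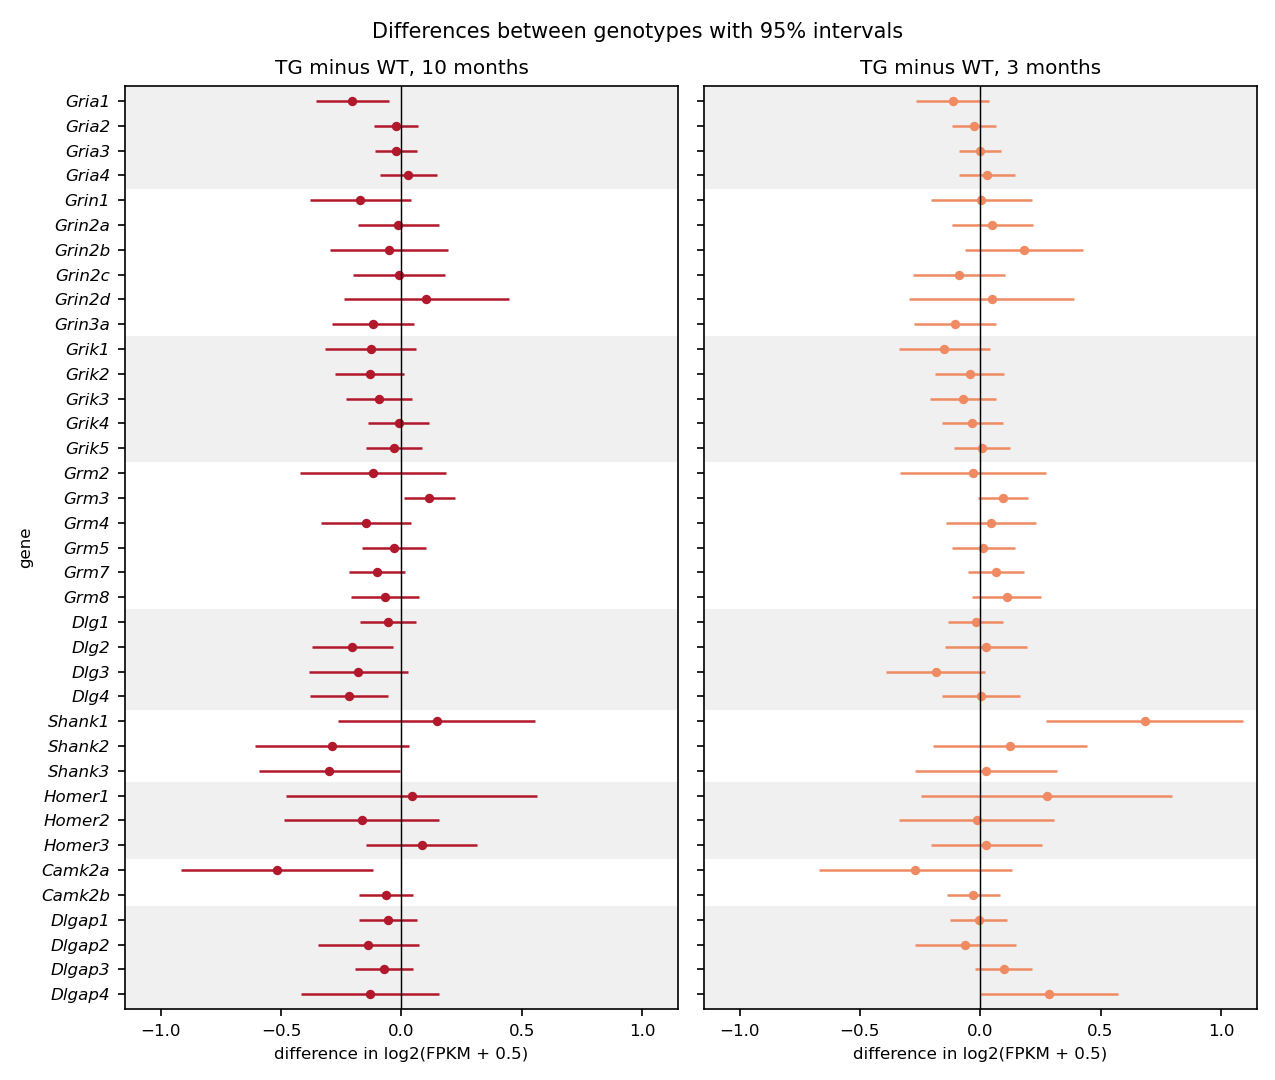
Difference between genotypes for each of the 37 genes at 10 months (left) and 3 months (right), as TG minus WT in log2(FPKM + 0.5) on the x axis; points are the fitted differences and lines their 95% intervals, 5 libraries a group. At 10 months 31 points lie left of 0, with Camk2a farthest at -0.52; at 3 months 17 do, and Shank1 lies farthest right at 0.68.

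Among the AMPA receptor subunits, Gria1 (ENSMUSG00000020524; GRCm38 chromosome 11, 57011387 to 57330244, plus strand), which encodes GluA1, was among the 3 members with the smallest p at 10 months. It had 75.3, 80.9, 90.7, 83.5 and 76.0 FPKM in the TG10M libraries, against 85.8, 98.5, 97.7, 106 and 81.6 FPKM in the WT10M libraries. The lowest WT10M value, from library 5 of the set apart, lay below 2 of the TG10M values, and the groups overlapped. The difference was -0.20 (SE 0.07, adjusted p = 0.212, limma). At 3 months Gria1 had 74.2 to 93.4 FPKM in TG03M and 84.8 to 97.1 FPKM in WT03M libraries, a difference of -0.11 (adjusted p = 0.609, limma), which was 0.03 with the low Hsp90aa1 state as a term (adjusted p = 0.846, limma). Gria2 (ENSMUSG00000033981; chromosome 3, 80681450 to 80802835, minus strand), the subunit that makes AMPA receptors impermeable to calcium, was among the steadiest members. Its differences were -0.02 at both ages, and the 95% interval at 10 months ran from -0.12 to 0.07. Gria3, at 58.4 to 67.6 FPKM over the 20 libraries, varied less still.

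Gria4 (ENSMUSG00000025892; chromosome 9, 4417896 to 4796234, minus strand) was the only member that separated the ages without overlap in transgenic mice, with 57.8, 51.3, 51.3, 51.0 and 59.4 FPKM in TG10M and 48.1, 48.8, 47.3, 47.0 and 50.4 FPKM in TG03M libraries; 1.84% of tested genes were higher without overlap in this comparison, and 1.57% were lower, among them 0 members. The same gene had 56.5, 50.8, 47.5, 54.2 and 56.3 FPKM in WT10M and 44.5, 45.6, 48.6, 47.3 and 51.1 FPKM in WT03M libraries. The difference with age was 0.16 in transgenic mice (SE 0.06, adjusted p = 0.179) and 0.16 in wild-type mice (adjusted p = 0.525, limma), and neither was called. TG10M libraries 1 and 5, of the set apart, held the 2 highest TG10M values. Without the set apart the difference was 0.08 in transgenic mice (adjusted p = 0.659) and 0.14 in wild-type mice (adjusted p = 0.475, limma). The interaction was 0.0010 with a 95% interval of -0.17 to 0.17.

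The AMPA receptor genes carry a pair of mutually exclusive exons, flip and flop, that encode part of the glutamate-binding domain and set how fast the channel desensitises. Those of Gria1 and Gria2 are shown as examples. They were read from the GENCODE M21 transcripts on GRCm38, and capitals mark the codon for serine in flip and asparagine in flop.
Gria1 flip, chr11:57310608-57310722, plus strand: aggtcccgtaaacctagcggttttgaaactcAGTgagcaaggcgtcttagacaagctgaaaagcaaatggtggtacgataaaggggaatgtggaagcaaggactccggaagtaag
Gria1 flop, chr11:57309769-57309883, plus strand: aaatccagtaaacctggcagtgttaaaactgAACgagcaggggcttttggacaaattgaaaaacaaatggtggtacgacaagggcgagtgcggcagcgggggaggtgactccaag
Gria2 flip, chr3:80690404-80690518, minus strand: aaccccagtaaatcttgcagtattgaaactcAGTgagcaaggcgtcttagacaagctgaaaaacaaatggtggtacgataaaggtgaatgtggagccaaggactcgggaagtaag
Gria2 flop, chr3:80691320-80691434, minus strand: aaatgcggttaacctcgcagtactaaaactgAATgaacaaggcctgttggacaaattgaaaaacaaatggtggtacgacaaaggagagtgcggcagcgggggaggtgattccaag
In each gene 36 of the 115 bases differ between the exons, spread over the whole length, so fragments that cross them can tell the forms apart.

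Summed over transcripts, flip made up 50.7% of the flip and flop FPKM of Gria1 in TG10M and 50.9% in WT10M libraries, and 51.0% in TG03M and 49.4% in WT03M libraries (means of 5). The group ranges overlapped at both ages: 48.4 to 54.9% in TG10M and 47.2 to 60.1% in WT10M. The share was highest in WT10M library 5 at 60.1% and was 52.5 and 54.9% in TG10M libraries 1 and 5, while the other 17 libraries lay between 46.9 and 54.3%. In the set apart the Gria1 flop transcript stood at 29.8 to 33.8 FPKM, below its range of 34.7 to 47.9 FPKM in the 17 others, whereas the flip transcripts stood at 37.4 to 44.8 FPKM, within the range of the others. Flip made up 77.5% of Gria2 in both 10-month groups, 78.2% in TG03M and 78.7% in WT03M libraries. The set apart lay at 75.9 to 76.3% and the other 17 libraries at 76.8 to 79.8%. The Gria2 transcripts also differ in length, 4026 bases for flip and 10371 for flop, so their share is not that of the exons alone. In Gria3 flip made up 73.6 to 79.8% in the 10-month libraries and 76.6 to 79.6% in the 3-month libraries. In Gria4 flop prevailed, with flip at 14.8 to 34.8% over the 20 libraries. Most of the Gria4 level was in the transcript ENSMUST00000163309, at a mean of 34.2 FPKM, which ends before these exons. These shares are descriptions of the authors' transcript estimates.

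Among the NMDA receptor subunits, Grin1 (ENSMUSG00000026959; chromosome 2, 25291181 to 25319187, minus strand), the subunit that every NMDA receptor contains, was the highest at a mean of 69.4 FPKM. It had 54.0, 64.8, 69.9, 69.5 and 48.9 FPKM in the TG10M libraries, against 73.6, 72.2, 73.7, 74.9 and 51.6 FPKM in the WT10M libraries. The 3 lowest values were those of the set apart, in both genotypes. In the 7 other 10-month libraries all TG10M values lay below all WT10M values, as they did for 9.08% of tested genes. Over all libraries the difference was -0.17 (SE 0.10, adjusted p = 0.443, limma). At 3 months Grin1 differed by 0.0047 between genotypes, with a 95% interval of -0.21 to 0.21. With the low Hsp90aa1 state as a term this was 0.27, with an interval of 0.10 to 0.43 (adjusted p = 0.172, limma). Within 3 months that term divides TG03M library 1, at 75.2 FPKM, from TG03M libraries 2 to 5, at 68.5 to 78.7 FPKM. The term thus takes its size from the 10-month libraries as well, where Grin1 was lower in the set apart. Exons of Grin1os, which runs antisense to Grin1, overlap it, and whether the libraries kept the strand is not given in the sources used here; Grin1os itself had at most 1.27 FPKM. By transcripts, 23.04% of Grin1 in TG10M and 21.3% in WT10M libraries contained the N1 exon (chromosome 2, 25311343 to 25311405), which alters the extracellular part of the subunit. The C1 exon of its tail (25294438 to 25294548) was in 52.6% in TG10M and 53.4% in WT10M libraries. The ranges of both shares overlapped between genotypes at each age.

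Grin2a and Grin2b encode the subunits whose exchange marks cortical maturation. Grin2a had 36.3 to 48.7 FPKM in TG10M and 38.5 to 46.9 FPKM in WT10M libraries, and Grin2b had 54.8 to 72.7 FPKM in TG10M and 59.2 to 71.6 FPKM in WT10M libraries. The ratio of Grin2a to Grin2b, on the log2 scale, was -0.51 ± 0.17 in TG10M and -0.55 ± 0.13 in WT10M, and -0.48 ± 0.25 in TG03M and -0.35 ± 0.15 in WT03M libraries (SD, n = 5 each). Between genotypes the means at each age lay closer together than the SD of either group. Between the ages in wild-type mice they lay farther apart than either SD, a difference that was not tested. Among 3-month transgenic libraries Grin2b ran from 50.5 to 91.0 FPKM, against 54.9 to 65.4 FPKM in WT03M. Grin2c, Grin3a and Grin2d, with means of 10.2, 7.50 and 1.85 FPKM over the 20 libraries, were not called in any comparison. Grin2c was lowest in the set apart in both genotypes, and in the 7 other 10-month libraries it was the only member higher in every TG10M than in every WT10M library (10.6 to 11.3 against 10.2 to 10.5 FPKM), as were 8.78% of tested genes.

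The kainate receptor subunits averaged 3.86 to 27.8 FPKM over the 20 libraries. Grik5 (ENSMUSG00000003378; chromosome 7, 25009849 to 25072346, minus strand), a partner subunit that needs Grik1, Grik2 or Grik3 to form channels, was the highest, with 24.9 to 29.1 FPKM in TG10M and 26.0 to 29.7 FPKM in WT10M libraries. All 5 kainate subunits had negative differences at 10 months, from -0.13 to -0.01, and none was called. Their 95% intervals lay between -0.32 and 0.11. Grik1, at 3.86 FPKM the lowest of them, had 3.34 to 4.93 FPKM in TG10M and 3.88 to 4.57 FPKM in WT10M libraries, and Grik4, at 4.95 FPKM, had 4.47 to 5.22 FPKM in TG10M and 4.44 to 5.23 FPKM in WT10M libraries. Grik2 and Grik3 averaged 19.9 and 11.9 FPKM.

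Of the metabotropic receptors, Grm5 (ENSMUSG00000049583; chromosome 7, 87584168 to 88134907, plus strand), which Homer binds, was the highest, with a mean of 86.2 FPKM. It differed by -0.03 between genotypes at 10 months, with a 95% interval of -0.16 to 0.10, and was highest in the set apart in both genotypes. The others, Grm2, Grm3, Grm4, Grm7 and Grm8, inhibit adenylyl cyclase and are found mainly on presynaptic terminals, and Grm3 also on astrocytes. Grm3 was among the 6 members with an unadjusted p under 0.05 at 10 months, and the single gene of them that was higher. It had 60.7, 55.3, 59.4, 63.9 and 59.6 FPKM in TG10M, against 57.7, 51.4, 54.5, 57.4 and 54.5 FPKM in WT10M libraries, a difference of 0.12 (adjusted p = 0.308, limma). The astrocyte markers given above were also higher in these TG10M libraries, and their part in this difference was not tested. Grm2 had 7.32 to 9.94 FPKM in TG10M and 7.69 to 11.7 FPKM in WT10M libraries, and Grm4 had 4.36 to 6.04 FPKM in TG10M and 5.13 to 6.66 FPKM in WT10M libraries. Neither was called. Grm8 and Grm7 were named by the smallest p in other comparisons. Grm8 had 10.3 to 12.03 FPKM in WT10M and 8.39 to 10.8 FPKM in WT03M libraries, a difference of 0.15 (adjusted p = 0.681). Grm7 had an interaction of -0.17 (adjusted p = 0.962, limma), which was 0.03 when its leading transcript was fitted in place of the gene.

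The 4 Dlg genes all had negative differences at 10 months, from -0.22 to -0.06, also under both scalings, and none was called. Dlg4 (ENSMUSG00000020886; chromosome 11, 70016942 to 70047522, plus strand), which encodes PSD-95, the main scaffold under AMPA and NMDA receptors, had the smallest p of all members there. It had 107, 121, 132, 125 and 104 FPKM in TG10M, against 141, 144, 148, 144 and 110.9 FPKM in WT10M libraries. Of the 5 WT10M libraries, 4 lay above every TG10M library, and library 5, of the set apart, lay among the lowest. The difference was -0.22 (SE 0.08, 95% interval -0.38 to -0.06, adjusted p = 0.21, limma), and without the set apart it was -0.19 (adjusted p = 0.0877, limma). At 3 months it was 0.0033 (95% interval -0.16 to 0.17), with 129.6, 139, 143, 152 and 159 FPKM in TG03M and 144, 152, 140.4, 139.5 and 143 FPKM in WT03M libraries. The test of the difference between the ages, the interaction, gave -0.22 with an adjusted p of 0.962 (limma).

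Dlg3 (ENSMUSG00000000881; chromosome X, 100767722 to 100818410, plus strand), which encodes SAP102, was the member that separated the genotypes at 3 months. It had 43.7, 42.8, 44.8, 44.5 and 42.8 FPKM in TG03M and 51.1, 51.2, 46.8, 50.8 and 49.2 FPKM in WT03M libraries. The highest TG03M value lay below the lowest WT03M value. The difference was -0.19 (SE 0.10, adjusted p = 0.512, limma). With the set apart left out, which lowers the shared estimate of the spread and changes no 3-month library, the same difference had an adjusted p of 0.00432 (limma) and was called with 3.45% of tested genes. With the low Hsp90aa1 state as a term in the fit it was 0.07 (adjusted p = 0.722, limma). Within 3 months that term divides TG03M library 1, at 43.7 FPKM, from the 4 other transgenic libraries, at 42.8 to 44.8 FPKM, so the term takes its size from the 10-month libraries as well. At 10 months Dlg3 had 34.1, 42.8, 42.8, 43.9 and 32.8 FPKM in TG10M, against 45.5, 47.5, 49.1, 49.2 and 32.3 FPKM in WT10M libraries. The set apart differed from the other libraries of its genotype by -0.36 in TG10M and -0.56 in WT10M on the log2 scale. Dlg2, which encodes PSD-93, differed by -0.20 at 10 months (adjusted p = 0.262) and by 0.02 at 3 months (adjusted p = 0.946, limma). Dlg1, which encodes SAP97, had 82.4 to 90.3 FPKM in TG10M and 80.7 to 94.7 FPKM in WT10M libraries, a difference of -0.06.

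None of the 3 Shank genes was called in any comparison over all libraries. Shank1 (ENSMUSG00000038738; chromosome 7, 44310253 to 44360572, plus strand) had the smallest p of all members at 3 months and the largest difference, 0.68 (SE 0.20, 95% interval 0.27 to 1.09, adjusted p = 0.176, limma). It had 14.6, 25.3, 17.4, 32.0 and 37.4 FPKM in TG03M, against 16.2, 15.6, 15.3, 11.6 and 15.3 FPKM in WT03M libraries. In TG03M 4 libraries lay above every WT03M library, and these were the 4 with low Hsp90aa1; TG03M library 1, with Hsp90aa1 at 560 FPKM, lay within the WT03M range. Without that library the difference was 0.86 (adjusted p = 0.0301, limma), in a fit that called 108 of 13722 tested genes at 3 months. The TG03M libraries left all carry the low Hsp90aa1 state and the WT03M libraries do not. Genotype and that state cannot be told apart at 3 months in that fit. With the Hsp90aa1 state as a term the difference was 0.29 (adjusted p = 0.519, limma), in a fit that called 0.0292% of tested genes at 3 months and 0 members. At 10 months Shank1 had 22.4, 16.7, 22.9, 17.6 and 25.1 FPKM in TG10M and 15.0, 18.4, 18.1, 19.7 and 23.1 FPKM in WT10M libraries, a difference of 0.15 (adjusted p = 0.762, limma). Shank1 shares exon sequence with a gene on the opposite strand, 1700008O03Rik, so fragments of the 2 genes cannot be told apart there if the libraries were not stranded.

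Shank3 (ENSMUSG00000022623; chromosome 15, 89499623 to 89560261, plus strand), the scaffold deleted in Phelan-McDermid syndrome in humans, had 16.2, 20.7, 23.6, 24.6 and 16.5 FPKM in TG10M, against 27.4, 26.2, 30.3, 25.5 and 16.7 FPKM in WT10M libraries. The 3 lowest values were those of the set apart. The difference was -0.30 (95% interval -0.59 to -0.0045, adjusted p = 0.349, limma). Shank2 (ENSMUSG00000037541; chromosome 7, 144001928 to 144424494, plus strand) had 10.7 to 15.9 FPKM in TG10M and 10.5 to 18.2 FPKM in WT10M libraries, a difference of -0.29 (adjusted p = 0.403, limma). For both genes the set apart held the 3 lowest 10-month values.

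Camk2a (ENSMUSG00000024617; chromosome 18, 60925618 to 60988152, plus strand), the kinase subunit of forebrain excitatory neurons, had the largest difference of the 37 genes at 10 months. It had 92.8, 157, 157, 149 and 106 FPKM in TG10M, against 205, 215, 229.7, 213 and 101 FPKM in WT10M libraries. All WT10M libraries but library 5 lay above all TG10M libraries, and the 3 lowest values were those of the set apart. The difference was -0.52 (SE 0.19, 95% interval -0.92 to -0.12, adjusted p = 0.228, limma). Without the set apart, in a fit of the 17 other libraries of both ages, it was -0.48 (SE 0.11, adjusted p = 0.0277, limma) and was called, as were 2.38% of tested genes. At 3 months Camk2a had 153, 171, 159, 193 and 227 FPKM in TG03M and 249, 204, 205, 194 and 229.7 FPKM in WT03M libraries, a difference of -0.27 (adjusted p = 0.656, limma). With the low Hsp90aa1 state as a term the 3-month difference was 0.13 (adjusted p = 0.773, limma). Within 3 months that term divides TG03M library 1, at 153 FPKM, from TG03M libraries 2 to 5, at 159 to 227 FPKM. At 10 months Camk2a was instead lower in the set apart, and the term takes its size from both ages. The interaction was -0.25 with a 95% interval of -0.81 to 0.32. Camk2b (ENSMUSG00000057897; chromosome 11, 5969644 to 6066362, minus strand), which joins Camk2a in the same holoenzyme and binds actin, had 188 to 207 FPKM in TG10M and 182 to 221 FPKM in WT10M libraries. Its difference was -0.06, with a 95% interval of -0.18 to 0.05.

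**Figure D3:**
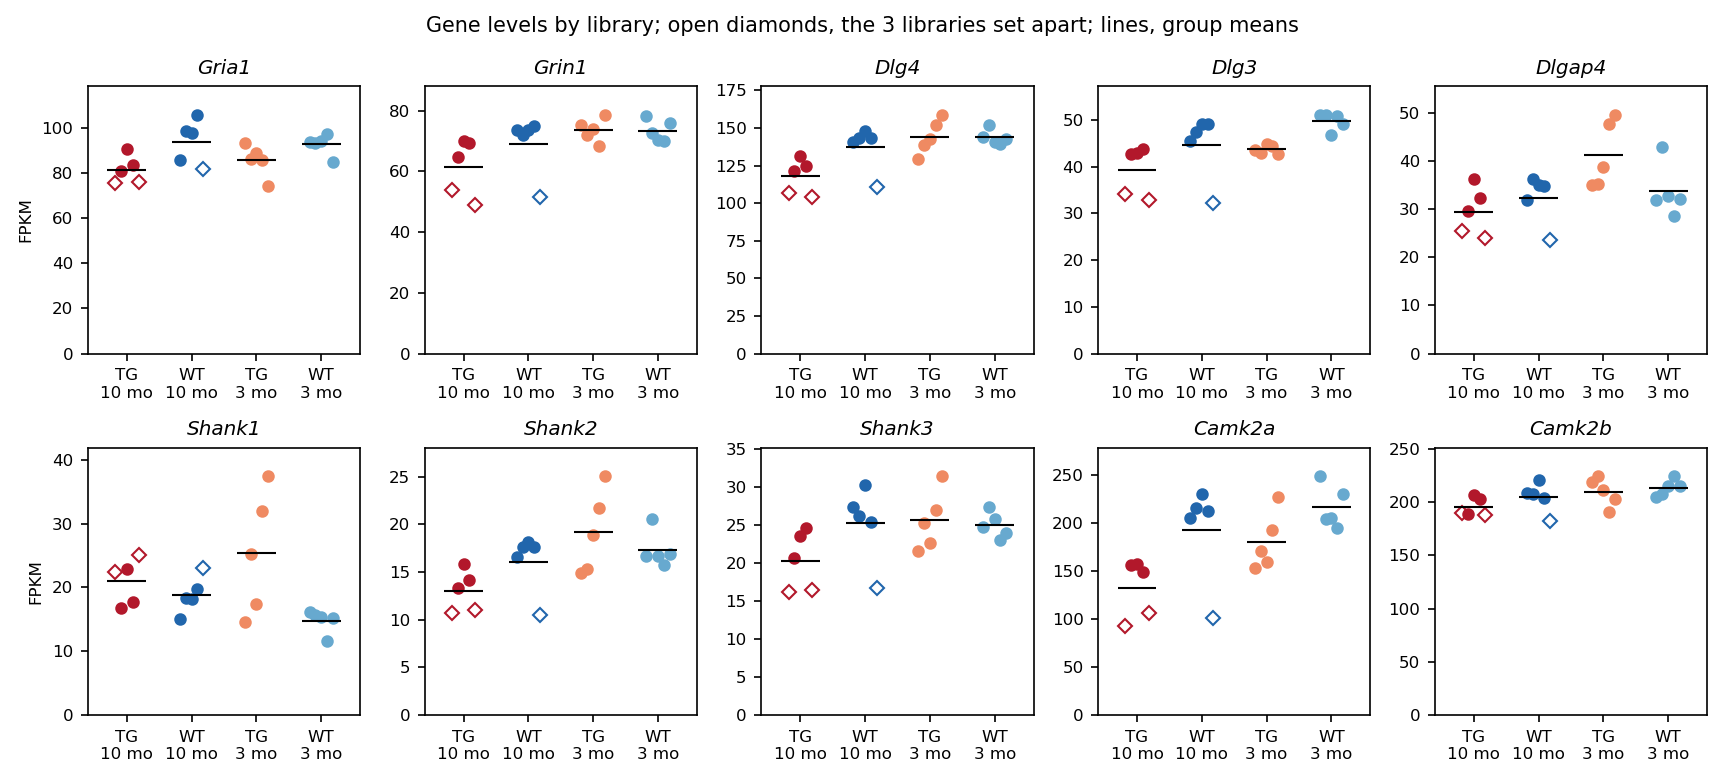
Level of 10 of the genes in each library (y axes, FPKM from 0); columns within a panel are the groups TG10M, WT10M, TG03M and WT03M, horizontal lines are group means, and open diamonds are the 3 libraries of the set apart. In Camk2a the filled 10-month points lie at 149 to 157 FPKM in TG10M and 205 to 229.7 FPKM in WT10M libraries, with all 3 open points at 92.8 to 106 FPKM; in Shank1 the TG03M libraries spread from 14.6 to 37.4 FPKM.

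The Dlgap genes, whose products join PSD-95 to Shank, had negative differences at 10 months in all 4 cases, from -0.14 to -0.06, and none was called. Dlgap1 (ENSMUSG00000003279; chromosome 17, 69969073 to 70821413, plus strand) was the highest of them and steady, with 138 to 149 FPKM in TG10M and 136 to 156 FPKM in WT10M libraries. Dlgap4 (ENSMUSG00000061689; chromosome 2, 156613705 to 156764363, plus strand) was named in 3 comparisons. At 3 months it had 35.1, 35.2, 38.8, 47.6 and 49.7 FPKM in TG03M and 31.9, 43.0, 32.8, 28.7 and 32.1 FPKM in WT03M libraries, a difference of 0.29 (adjusted p = 0.471, limma), which was 0.48 with the low Hsp90aa1 state as a term (adjusted p = 0.2, limma). TG03M libraries 2 to 5, which carry that state, lay above library 1, whereas the set apart lay lower at 10 months. The term takes its size from both ages. At 10 months Dlgap4 had 25.4, 29.5, 36.3, 32.3 and 24.1 FPKM in TG10M, against 31.9, 36.4, 35.0, 34.8 and 23.7 FPKM in WT10M libraries. The difference of the 2 differences was -0.42 (SE 0.19, 95% interval -0.82 to -0.01, adjusted p = 0.962, limma). Dlgap2 had 9.79 to 13.7 FPKM in TG10M and 9.61 to 14.0 FPKM in WT10M libraries, and Dlgap3 had 76.9 to 88.4 FPKM in TG10M and 80.2 to 89.9 FPKM in WT10M libraries. Dlgap3 had an interaction of -0.17 (SE 0.08, adjusted p = 0.962, limma).

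Leaving out WT10M library 5 alone had the largest effect on these results at 10 months. Gria1, Grin1, Dlg2, Dlg3, Dlg4, Shank2, Shank3 and Camk2a were then called as lower in TG10M, with differences from -0.73 for Camk2a to -0.25 for Gria1, and 11.7% of all tested genes were called (1600 of 13722). The set apart then holds TG10M libraries only, so genotype and the set apart cannot be told apart in that fit. With all 3 libraries of the set apart left out, Camk2a alone was called among the members. With the set apart kept in and fitted as a term, no member was called. In the 7 remaining 10-month libraries, 8 members were lower in every TG10M library than in every WT10M library: Camk2a, Dlg2, Dlg3, Dlg4, Grik1, Grin1, Shank2 and Shank3. This held for 9.08% of tested genes.

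The set apart differed from the other 10-month libraries of the same genotype in many members. In 13 of 37 members the libraries of the set apart were below all other 10-month libraries of their genotype in TG10M and in WT10M, against 21.9% of tested genes, and in 2 members, Gria2 and Grm5, they were above, against 19.7%. The 13 were Gria1, Grin1, Grin2c, Dlg2, Dlg3, Dlg4, Shank2, Shank3, Homer1, Homer2, Camk2a, Dlgap3 and Dlgap4. The offset was largest for Camk2a, at -0.63 in TG10M and -1.09 in WT10M on the log2 scale, and next for Homer2, which encodes another Homer scaffold, at -0.51 and -0.82. The median offset of the 37 was -0.09 in TG10M and -0.15 in WT10M, against 0.0074 and 0.01 for all tested genes. In the leading transcripts of the 13 the median GC content was 55.3%, against 48.0% in the other 24 members and 50.6% in all tested genes. Over the 37 members the offset and the GC content had a rank correlation of -0.34, and over 13692 tested genes one of -0.09. With transcript length the rank correlations were -0.096 over the members and -0.308 over the tested genes. These describe genes of the same libraries. The summed excitatory markers were 406 to 430 FPKM in the set apart, against 475 to 490 FPKM in the other TG10M and 446 to 484 FPKM in the other WT10M libraries. Their part in these offsets, and what sets the libraries apart, was not tested.

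**Figure D4:**
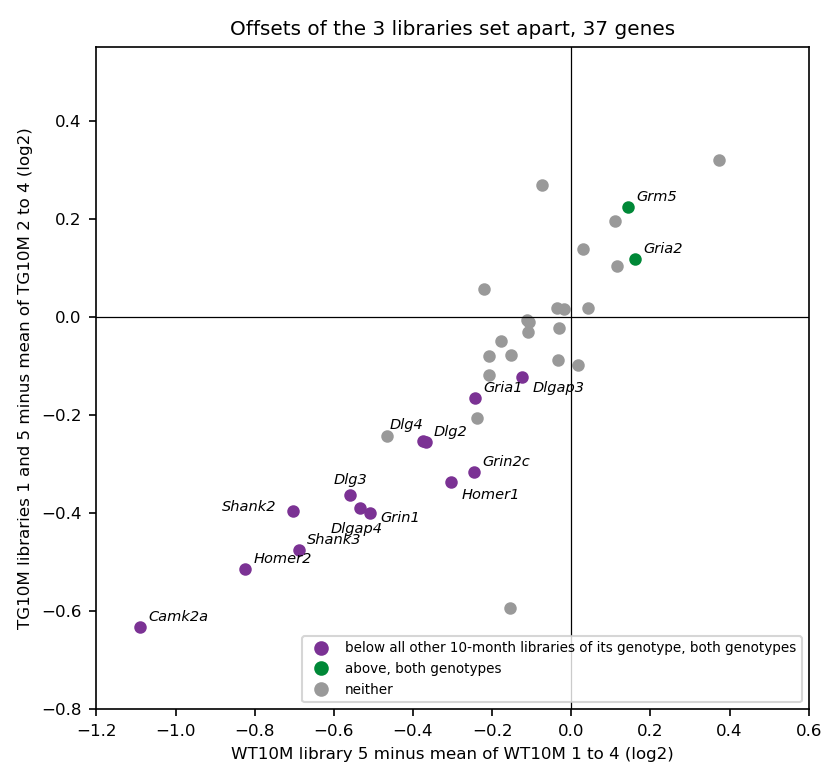
Offset of the set apart from the other 10-month libraries for each of the 37 genes, in TG10M (y axis, mean of libraries 1 and 5 minus mean of libraries 2 to 4) and in WT10M (x axis, library 5 minus mean of libraries 1 to 4), in log2 units. The 13 genes whose set-apart libraries lie below all others in both genotypes are named, with Camk2a farthest at -0.63 and -1.09, and Gria2 and Grm5 lie above.

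With age, 0 of 37 members were called in transgenic mice, where 0.845% of tested genes were called (116 of 13722), and 0 in wild-type mice, where 0.0656% were (9 of 13722). These comparisons share libraries with those between genotypes, TG10M and WT10M among them. In transgenic mice 31 members had negative differences, meaning lower at 10 months, with a median of -0.10, and 11 had an unadjusted p under 0.05, against 16.1% of tested genes. In wild-type mice 21 were negative, with a median of -0.01, and 2 had an unadjusted p under 0.05, against 6.72% of tested genes. Without the set apart, which holds 1 wild-type library, WT10M library 5, the wild-type split was 12 negative and 25 positive, with a median of 0.02, and 13 members changed sign. Dlg4 had the lowest adjusted p of any member in any comparison, 0.0756 (limma), with 107, 121, 132, 125 and 104 FPKM in TG10M and 129.6, 139, 143, 152 and 159 FPKM in TG03M libraries. Its difference was -0.29 (SE 0.08), and without the set apart it was -0.19 (adjusted p = 0.162, limma). Dlg4 was called without TG10M library 3 (-0.34) and without WT10M library 5, where Shank2 and Dlgap4 and 2.1% of tested genes were called too. Over the fits with 1 library left out, 56 to 288 of the 13722 tested genes were called in this comparison. Shank2 had 10.7, 13.4, 15.9, 14.1 and 11.0 FPKM in TG10M and 14.9, 15.3, 18.8, 21.8 and 25.1 FPKM in TG03M libraries, a difference of -0.53 (adjusted p = 0.107, limma). Dlgap4 fell short of the threshold likewise, at -0.48 (adjusted p = 0.105, limma). The range of the TG03M libraries was wide for both genes, and TG10M libraries 1 and 5 held their lowest values. All 10 excitatory neuron markers were detected in both groups, with a summed level of 424 to 490 FPKM in TG10M and 493 to 563 FPKM in TG03M libraries, and their part in these differences was not tested.

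Beside Gria4 and Grm8, the smallest p with age in wild-type mice belonged to Homer2 (ENSMUSG00000025813; chromosome 7, 81600481 to 81707527, minus strand). It had 8.46, 9.75, 10.4, 7.97 and 4.92 FPKM in WT10M and 9.72, 10.6, 9.40, 9.65 and 10.6 FPKM in WT03M libraries, with the lowest value in the library of the set apart. The difference was -0.29 (adjusted p = 0.79, limma). In transgenic mice the difference of Homer2 with age was -0.45 (adjusted p = 0.172, limma). Without the set apart these differences were -0.24 in transgenic mice (adjusted p = 0.386) and -0.13 in wild-type mice (adjusted p = 0.758, limma). Homer3, whose exons share 713 bases with Ddx49 on the opposite strand, had 1.78 to 2.32 FPKM in TG10M and 1.79 to 2.11 FPKM in WT10M libraries. With the low Hsp90aa1 state as a term, 11 members were called with age in transgenic mice, 10 lower and Gria4 higher, but so were 16.9% of all tested genes (2319 of 13722). In this comparison TG03M libraries 2 to 5 and TG10M libraries 1 and 5 carry that state.

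Homer1 (ENSMUSG00000007617; chromosome 13, 93299635 to 93405129, plus strand) varied most among the members with a high level, from 118 to 292 FPKM over the 20 libraries, and its groups overlapped in all comparisons. It makes long forms, whose coiled coil lets them crosslink Shank and the metabotropic receptor, and short forms without that coil, Homer1a and ania-3, which neuronal activity induces and which compete with the long ones. The forms part at the end of a shared exon (chromosome 13, 93355940 to 93356079, plus strand). The last bases of that exon are shown in lower case and the bases that follow in each form in capitals, to the stop codon in Homer1a, from the GENCODE M21 transcripts on GRCm38.
Homer1a: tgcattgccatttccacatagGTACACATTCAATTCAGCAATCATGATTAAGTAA
Homer1 long form: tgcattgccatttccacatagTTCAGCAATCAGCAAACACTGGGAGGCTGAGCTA
In Homer1a the transcript reads on into the intron, where its coding sequence ends after 34 bases, and in the long form it is spliced to the next coding exon.

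The Homer1a transcript had 17.5, 28.3, 52.0, 44.5 and 21.4 FPKM in TG10M, against 30.6, 42.7, 30.0, 19.1 and 15.8 FPKM in WT10M libraries. At 3 months it had 10.5, 14.8, 67.01, 96.5 and 86.9 FPKM in TG03M, against 14.7, 93.9, 33.02, 17.4 and 17.9 FPKM in WT03M libraries. High and low libraries thus stood side by side within each genotype, with 3 TG03M libraries and 1 WT03M library over 60 FPKM. The ania-3 transcripts ran from 3.33 to 10.5 FPKM in TG10M and 3.98 to 11.0 FPKM in WT10M, and from 3.30 to 17.8 FPKM in TG03M and 2.75 to 14.9 FPKM in WT03M libraries. The long forms were steadier, at 76.9 to 84.1 FPKM in TG10M and 77.7 to 87.1 FPKM in WT10M, and 65.8 to 110.8 FPKM in TG03M and 62.6 to 93.5 FPKM in WT03M libraries. A further transcript, ENSMUST00000109494, which the annotation ends before the next long-form exon, ran from 33.9 to 88.7 FPKM over the 20 libraries. The difference of the whole gene between genotypes was 0.04 at 10 months (95% interval -0.48 to 0.56) and 0.28 at 3 months (95% interval -0.24 to 0.80).

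These forms were set beside Arc, an activity-induced gene whose product drives AMPA receptors out of the synapse. The relation was chosen after the values had been seen. The adjustment over the 3 relations does not cover that choice, so the p-values below describe these libraries and are no independent test. Arc had 113, 73.0, 183, 179 and 136 FPKM in TG10M, 44.3, 164, 130.2, 77.1 and 129 FPKM in WT10M, 64.2, 119, 215, 240.2 and 233 FPKM in TG03M and 139.7, 236, 134, 35.2 and 83.5 FPKM in WT03M libraries. Over the 20 libraries, on log2(FPKM + 0.5), ania-3 followed Arc with Pearson's r = 0.889 (permutation p = 2e-05, the smallest the permutations can give, and 6e-05 after adjustment over the 3 relations computed) and Spearman's rho = 0.941 (permutation p = 2e-05). Homer1a did so with r = 0.687 (permutation p = 0.00038, adjusted 0.00057) and rho = 0.735 (p = 0.00042, adjusted 0.00063). The long forms had r = 0.455 (permutation p = 0.0411, adjusted 0.0411) and rho = 0.543 (p = 0.015, adjusted 0.015). Without the 2 libraries farthest from the median of Arc, WT03M library 4 and WT10M library 1, r was 0.927 for ania-3, 0.833 for Homer1a and 0.688 for the long forms. Within the 7 libraries with low Hsp90aa1 r was 0.919, 0.988 and 0.874 for ania-3, Homer1a and the long forms, and within the 13 others it was 0.875, 0.669 and 0.215. The r of the long forms was thus lower within the 13 than over the 20 libraries, a difference that was not tested. Without the set apart r was 0.897, 0.739 and 0.465, and with the group means removed it was 0.881, 0.666 and 0.44.

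**Figure D5:**
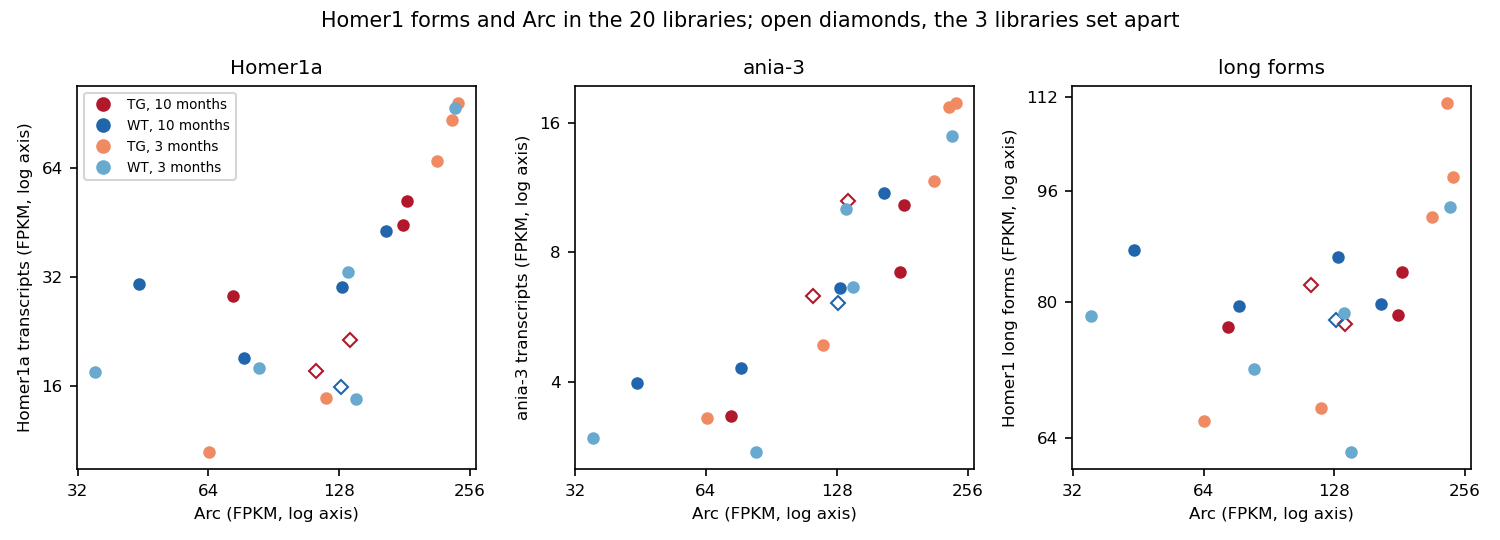
Homer1a transcript, ania-3 transcripts and long forms of Homer1 (y axes, FPKM, log axes) against Arc (x axes, FPKM, log axes) in the 20 libraries, coloured by group, with the 3 libraries of the set apart as open diamonds. Pearson's r on the log2 scale is 0.687 for Homer1a, 0.889 for ania-3 and 0.455 for the long forms.

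No transcript of a member was called either. Of the 164 transcripts, 124 reached a mean of 0.5 FPKM and were tested with all 24698 such mRNA transcripts. At 10 months 0 were called between genotypes against 0.174% of all tested transcripts (43 of 24698), and 10 had an unadjusted p under 0.05, as had 10.25% of all tested transcripts. The lowest adjusted p there belonged to the leading Dlg4 transcript, ENSMUST00000018700, at 0.28 (limma), with a difference of -0.23. At 3 months 0 were called against 0.0891%, and 6 had an unadjusted p under 0.05, against 8.85% of all tested transcripts. With age in transgenic mice 0 were called against 0.194%, and 19 had an unadjusted p under 0.05, against 12%. With age in wild-type mice 0 were called against 0.00405%, and 7 had an unadjusted p under 0.05, against 5.85%. For the interaction 0 were called against 0.0121%, and 9 had an unadjusted p under 0.05, against 5.02%.

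Proteins that work beside these receptors were read from 6 lists of other genes. Of 18 auxiliary subunits of AMPA and kainate receptors, 0 were called at 10 months between genotypes, 13 had negative differences and the median was -0.15. The smallest p upward belonged to Cnih2, at 0.13 (adjusted p = 0.436), and downward to Gsg1l, at -0.22 (adjusted p = 0.127, limma). With age in transgenic mice 1 of the 18 fell: Cacng7, a subunit that traffics AMPA receptors, had 25.0 to 27.8 FPKM in TG10M and 29.6 to 32.9 FPKM in TG03M libraries, a difference of -0.25 (SE 0.04, adjusted p = 0.00778, limma). Of 28 other postsynaptic density proteins 0 were called between genotypes at 10 months, with 22 negative and a median of -0.12. Among them Camk2n2, an inhibitor of CaMKII, had 25.2 to 29.4 FPKM in TG10M and 21.1 to 24.1 FPKM in WT10M libraries (adjusted p = 0.11), and Agap2 had 141 to 159 FPKM in TG10M and 153 to 181 FPKM in WT10M libraries (adjusted p = 0.13, limma). At 3 months Camk2n2 had 25.3 to 29.3 FPKM in TG03M and 21.7 to 26.8 FPKM in WT03M libraries (adjusted p = 0.111, limma). With age in transgenic mice 1 of the 28 fell, Dbn1, which encodes the actin-binding spine protein drebrin, with 54.2 to 62.1 FPKM in TG10M and 65.1 to 71.9 FPKM in TG03M libraries, a difference of -0.25 (SE 0.06, adjusted p = 0.0414, limma). In this comparison 0.845% of tested genes were called (116 of 13722). Genes called were 73 without the set apart and 2319 with the low Hsp90aa1 state as a term. Values of Cacng7 and Dbn1 under these settings are not given here.

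Of 17 trafficking and anchoring genes, 20 postsynaptic adhesion genes, 24 signalling genes and 8 genes of glutamate release and clearance, 0 were called between genotypes at either age or with age in either genotype. At 10 months their median differences between genotypes were -0.05, 0.01, -0.06 and 0.06. Negative differences numbered 14 of 17, 9 of 20, 16 of 24 and 1 of 8. The smallest p upward belonged to Arc, Lrrc4b and Src in the first 3 lists, and downward to Slc17a8 in the clearance list. These 4 are named without their tests. The smallest p of the trafficking list downward belonged to Akap5, an anchor for kinases beside PSD-95, at -0.27 (adjusted p = 0.183), and of the adhesion list to Slitrk3, at -0.20 (adjusted p = 0.134, limma). In the signalling list Ptpn5, a phosphatase that acts on NMDA and AMPA receptors and is rich in striatum, stood at -0.38 (adjusted p = 0.281, limma). In the clearance list the astrocytic transporter Slc1a3 had 161 to 184 FPKM in TG10M and 134 to 166 FPKM in WT10M libraries (adjusted p = 0.0613, limma). The striatal markers given above had negative differences in these libraries too, and their part in the difference of Ptpn5 was not tested.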

How the data were processed

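RNA from frozen cerebral cortex of 20 libraries, 5 in each of 4 groups, was used as deposited. The authors deposited FPKM per transcript, and the submitters' processing notes name CASAVA, TopHat2, Cuffdiff, DESeq2, GRCm38 and mm10; which tool made which value, whether libraries were stranded and how reads were counted is not given in the sources used here. FPKM of transcripts with the same gene ID were summed per gene, and 27 symbols that had been turned into dates were restored. No column lacked a sample. Depth was read from the steps between FPKM values of 1815 genes, of which 82.6 to 91.8% lay within 0.1 of whole multiples in a library, against 20.0% for evenly spread values.

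Genes with a mean of at least 0.5 FPKM (13722) were fitted with limma 3.58.1 in R 4.3.3 on log2(FPKM + 0.5), in 1 model of 4 groups with 16 residual degrees of freedom and a mean-variance trend. Benjamini-Hochberg adjustment was over all tested genes, with 0.05 as the threshold; transcripts were fitted alike. The fit was tested on simulated data with independent noise for each gene. That simulation held no split between libraries such as the set apart, so it does not cover the effect of one. Tables were handled in Python 3.11.15 with pandas 2.3.3, NumPy 2.4.6, SciPy 1.17.1 and Biopython 1.88, and sequences, exons and positions come from GENCODE M21. The members, lists and tests were chosen with earlier results of these data known. Named in the text are the 3 members with the smallest p in each comparison and the member with the highest level of each role, and for each other list the genes called and those with the smallest p in each direction. The groups share replicate numbers, but no label says that these pair the libraries, and the main fit has no replicate block. The 20 correlations of same-numbered libraries ran from -0.42 to 0.66, with 5 over 0.1. The highest was that of TG10M and WT10M library 5, both of the set apart. Such values cannot exclude a pairing. Alternatives in filter, pseudocount, scaling, samples fitted, weights, replicate block and libraries left out were run.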

Additional observations from a re-analysis of the deposited data

Results flagged for a closer look

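For each of the 37 genes and each of the 4 groups, a library was listed when it lay farther from the others of its group than Dixon's test at the 95% level allows; chance lists about 1 in 20 groups, and here 16 of 148 were listed. Of these, 9 were library 5 of WT10M, which belongs to the set apart: Gria2 at 232.7 FPKM, above the other WT10M libraries, and, below them, Grin1 at 51.57, Grin2c at 8.631, Dlg2 at 62.87, Dlg3 at 32.31, Dlg4 at 110.9, Shank2 at 10.54, Camk2a at 101.0 and Dlgap2 at 9.605 FPKM. In WT03M library 2 was high for Homer1 at 292.1, Shank2 at 20.54 and Dlgap3 at 95.88 FPKM, and library 4 was low for Shank1 at 11.55 FPKM. In TG10M library 3 was high for Grin3a at 8.027 FPKM, and library 2 was high for Grm2 at 9.935 and Dlgap1 at 148.7 FPKM. The cause of these values was not tested.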

How the results depend on the processing

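Of 342 values under 16 alternative settings, which cover each named member in the comparison it was named for and no other, 330 kept their direction and their side of the threshold, 9 passed the threshold where they had not and 3 changed sign. These 3 were Dlg3 at 3 months with the low Hsp90aa1 state as a term (0.0662) and, with the leading transcript fitted in place of the gene, Homer1 at 10 months (-0.0307) and the interaction of Grm7 (0.0326). The cause was not tested. Over all 37 members, 15 changed sign at 3 months with the low Hsp90aa1 state as a term, among them Camk2a (0.1317) and Gria1 (0.0346), and 13 changed sign with age in wild-type mice without the set apart. That term takes its size from the 10-month libraries as well as from TG03M. When single libraries were left out, 4 values near 0 at 10 months changed sign: Gria2 (-0.0459 to 0.0082), Grik5 (-0.0558 to 0.0019), Grm5 (-0.0675 to 0.0172) and Homer1 (-0.0322 to 0.0997).

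With the compared groups fitted alone, 16 genes were called between genotypes at 10 months, 221 at 3 months (1 member, Dlg3), 52 with age in transgenic and 1 in wild-type mice. With array weights the counts were 945 at 10 months (3 members: Camk2a, Dlg2 and Dlg4), 261 at 3 months, 44 with age in wild-type mice and 10 for the interaction. Without the set apart they were 326 at 10 months (1 member), 473 at 3 months (1 member) and 73 with age in transgenic mice, and with the set apart as a term 178, 492 (1 member) and, with age in wild-type mice, 14. With the low Hsp90aa1 state as a term 4 genes were called at 3 months, where the members' median was 0.0752, and 2319 with age in transgenic mice (11 members), and the median of the interaction was -0.1415. A mean of at least 1 FPKM gave 3 genes for the interaction, and no filter gave 22 at 3 months. Transcripts in place of genes gave 43, 22, 48, 1 and 3 calls, and a pseudocount of 0.1 gave 3 transcripts with age in wild-type mice. With the replicate number as a block, 5 genes were called with age in wild-type mice, 25 transcripts between genotypes at 10 months and 4 transcripts with age in wild-type mice. No label says that the numbers pair the libraries.

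With 1 library left out, genes called ranged over 28 to 1600 at 10 months, 11 to 108 at 3 months, 56 to 288 with age in transgenic mice and 1 to 10 in wild-type mice, and members called over 0 to 8, 0 to 1 and 0 to 3 in the comparisons other than age in wild-type mice and the interaction. The upper ends of 1600 and 288 came without WT10M library 5 and that of 108 without TG03M library 1; the lower ends of 28 and 56 came without TG10M library 1 and that of 11 without TG03M library 5. Transcripts called ranged over 19 to 954, 4 to 81, 20 to 145, 0 to 3 and 2 to 5, and members' transcripts over 0 to 6 at 10 months and 0 to 3 with age in transgenic mice. FPKM give no counts, so counting error enters only through the spread between libraries.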
